A study of Mus musculus with 2 samples.

Results

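The unfolded protein response and the secretory machinery were followed through 36 genes, taken by their symbols from the 32285 genes of the count matrices of mouse fracture callus. Together these genes occupied 37 matrix entries, because Ddit3 was listed under 2 overlapping identifiers. The 36 genes formed 8 groups. They were the ER chaperones (Hspa5, Hsp90b1, Calr, Canx), the ER co-chaperones and folding factors (Dnajb9, Dnajb11, Dnajc3, Hyou1, Sdf2l1, Manf, Creld2), the protein disulfide isomerases (Pdia3, Pdia4, Pdia6, P4hb), the transcription factors of the response (Atf4, Xbp1, Atf6, Ddit3, Creb3l1, Creb3l2), the genes of ER-associated degradation (Sel1l, Herpud1, Edem1, Derl1, Derl3), the targets of ATF4 (Trib3, Chac1, Asns), the translocation and COPII export genes (Sec61b, Sec24d, Sec23a, Mia3) and the collagen chaperones (Serpinh1, Fkbp10, Ppib).

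Secreted and membrane proteins are folded in the endoplasmic reticulum (ER), and an overload of unfolded protein there is sensed by IRE1, PERK and ATF6. IRE1 splices the Xbp1 mRNA, PERK slows translation while favouring that of ATF4, and ATF6 is cut in the Golgi to release a transcription factor, and together they raise chaperones, degradation factors and export capacity. Chondrocytes and osteoblasts secrete large amounts of collagen and depend on this machinery, with the related factors Creb3l2 known for its role in chondrocytes and Creb3l1 in osteoblasts. Splicing, translation and cleavage cannot be read from the counts analysed here, which record only how much of each mRNA was captured.

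The study profiled calluses by scRNA-seq to follow the cells of a healing femoral fracture, and all animals were wild-type mice with a femoral fracture (12-week-old male C57BL/6J mice in the methods of the study). The design covers calluses from 5 mice at 10 days post fracture (dpf) and 5 mice at 20 dpf. There were 2 libraries, MGJ and MGJ2, and neither library's labels say which day or which mice it holds, so the libraries were not compared with each other and every comparison was made between cell classes inside a library. Each comparison therefore has n = 1 library on each side, with no replicate check and no p-value, and the 95% intervals given are exact intervals that cover counting error only.

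MGJ held 14295 barcodes with 135304426 unique molecular identifiers (UMIs, 1 per captured mRNA molecule), and MGJ2 held 8009 barcodes with 61130834, where the capture had aimed at 5000 cells a library. After filters for at least 200 genes, at most 20% mitochondrial UMIs and doublets, 12932 and 7575 cells remained, of which 644 and 388 lay in clusters given no cell type name. Clusters were built without the 36 genes, and 19 barcode sequences occurred in both libraries. Levels are each gene's UMIs divided by all UMIs of the class and scaled to counts per 1000000 (CPM).

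The classes compared below held markers of their names, with the limits given here. Chondrocyte-like cells (2727 in MGJ and 141 in MGJ2) held Col2a1, the main cartilage collagen, at 55181 and 45243 CPM. Osteoblast-like cells (201 and 57) held Col1a1, the main bone collagen, at 30159 and 31141 CPM and Bglap, the bone protein osteocalcin, at 826 and 218 CPM. Bglap stood at 20.2 CPM in chondrocyte-like cells of MGJ but at 161 CPM in those of MGJ2, where the ratio of 1.35 was under the 1.5 times used in the comparisons. The next best marker list of the osteoblast-like cluster was that of skeletal muscle, with a score of 3.47 against 4.31, and the cluster's Col2a1 stood at 6.04% and 12.4% of the chondrocyte level. Fibroblast-like cells, led by Tnmd and Aspn, were numerous only in MGJ (883 cells). Their cluster's next best list was that of tenocytes, with a score of 3.90 against 4.14. A cluster led by Cxcl5 and Ereg scored higher on the fibroblast list, at 4.67. It was left unnamed because markers of other classes were among its leading genes, so fibroblast-like results are those of the Tnmd-led cluster.

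The genomic addresses and promoters were as follows. Hspa5, which encodes the chaperone BiP (ENSMUSG00000026864, chr2:34771970-34777547, plus strand, GRCm38), and Hsp90b1 (ENSMUSG00000020048, chr10:86690209-86705509, minus strand) carry in their promoters the ER stress response element, CCAAT and CCACG 9 bases apart. This arrangement was searched on both strands from 250 bases before to 50 bases after the start site in the RefSeq promoter table (GRCm38.p6), where 30 of the 36 genes were found. It stood in 8 of those 30 promoters (26.7%: Hspa5, Hsp90b1, Calr, Canx, Dnajc3, Creld2, Pdia6 and Derl3) and in 39 of all 32851 promoters of that table (0.119%). The 4 below are shown because these genes serve as the chaperone examples in the results, with the bases of the element in capitals and 40 bases on each side where the table held them. On the strand that is read, CGTGG followed by ATTGG is the element in reverse.
Hspa5, chr2:34771985-34772083, plus strand, element 65 bases before the start site: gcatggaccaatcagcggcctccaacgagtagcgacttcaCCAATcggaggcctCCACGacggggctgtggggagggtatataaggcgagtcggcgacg
Hsp90b1, chr10:86705493-86705694, minus strand, with 2 copies: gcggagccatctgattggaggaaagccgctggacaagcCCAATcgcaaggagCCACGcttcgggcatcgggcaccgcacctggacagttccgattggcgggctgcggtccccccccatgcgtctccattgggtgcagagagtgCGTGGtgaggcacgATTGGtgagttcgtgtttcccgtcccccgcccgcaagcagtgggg
Calr, chr8:84847035-84847133, minus strand: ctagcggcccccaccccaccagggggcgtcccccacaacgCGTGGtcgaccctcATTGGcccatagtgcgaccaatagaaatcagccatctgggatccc
Pdia6, chr12:17266451-17266549, plus strand: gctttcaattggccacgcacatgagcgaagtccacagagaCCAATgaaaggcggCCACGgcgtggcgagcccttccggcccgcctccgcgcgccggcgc

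The binding sequence of ATF4 with its partners, TGATGNAAN, was present in 4 of the 30 promoters (13.3%: Asns, Chac1, Herpud1 and Trib3) and in 1299 of all promoters (3.95%). The 3 below belong to genes whose levels are followed in each comparison, again with the motif in capitals.
Asns, chr6:7693210-7693272, minus strand: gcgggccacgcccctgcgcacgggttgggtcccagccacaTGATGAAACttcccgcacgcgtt
Chac1, chr2:119351008-119351096, plus strand: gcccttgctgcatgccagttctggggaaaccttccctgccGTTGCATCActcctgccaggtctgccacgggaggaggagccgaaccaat
Herpud1, chr8:94386276-94386364, plus strand: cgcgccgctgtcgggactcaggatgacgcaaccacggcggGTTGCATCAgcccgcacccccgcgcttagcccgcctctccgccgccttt
A further motif, TGACGTGG, which the CREB3 family and ATF6 can bind, was found in the promoters of Sec23a and Sec24d (6.67% of the 30, against 0.676% of all promoters), the COPII coat genes. Its last bases, CGTGG, are also the reverse of CCACG. A match describes letters in the reference and not a bound site.
Sec24d, chr3:123267430-123267495, plus strand: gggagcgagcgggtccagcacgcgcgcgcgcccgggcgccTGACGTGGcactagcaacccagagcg

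Among the classes of at least 50 cells, osteoblast-like and chondrocyte-like cells had higher sums than every leukocyte class in both libraries. In MGJ the 36 genes summed to 14186 CPM in the unnamed cluster led by Cxcl5 and Ereg (513 cells). They summed to 14151 CPM in fibroblast-like cells and to 12349 CPM in chondrocyte-like cells. The values for the Cxcl5/Ereg cluster and the fibroblast-like cells could not be told apart (ratio 1.002, 95% interval 0.996 to 1.01). Smooth muscle or pericyte-like cells followed at 10407 CPM, osteoblast-like cells at 10128 CPM and endothelial cells at 7870 CPM. Leukocyte classes lay lower, from 6635 CPM in myeloid progenitors to 2573 CPM in neutrophils and 2167 CPM in immature neutrophils.

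In MGJ2 osteoblast-like cells led with 10691 CPM and chondrocyte-like cells followed with 9602 CPM (ratio 1.11, 95% interval 1.09 to 1.14). Myeloid progenitors stood at 8328 CPM. An unnamed cluster led by Igkc and Mzb1, immunoglobulin light chain and an ER protein of antibody-secreting cells, stood at 7251 CPM. Its next leading genes included Vpreb3, Vpreb1 and Igll1, which are on the marker list of pre-B cells. The cluster scored 4.75 on the plasma cell list and 4.18 on the pre-B cell list. In that cluster the median cell was at 3889 CPM, and 17 of its 126 cells, barcodes with at least 3 UMIs each of Jchain and Mzb1, held 8147 of its 14816 UMIs of the 36 genes. The other 109 cells summed to 4000 CPM. Neutrophils were again at the low end with 2176 CPM, and immature neutrophils were at 2613 CPM. The 49 endothelial cells, too few for this order, summed to 8305 CPM.

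**Figure D1:**
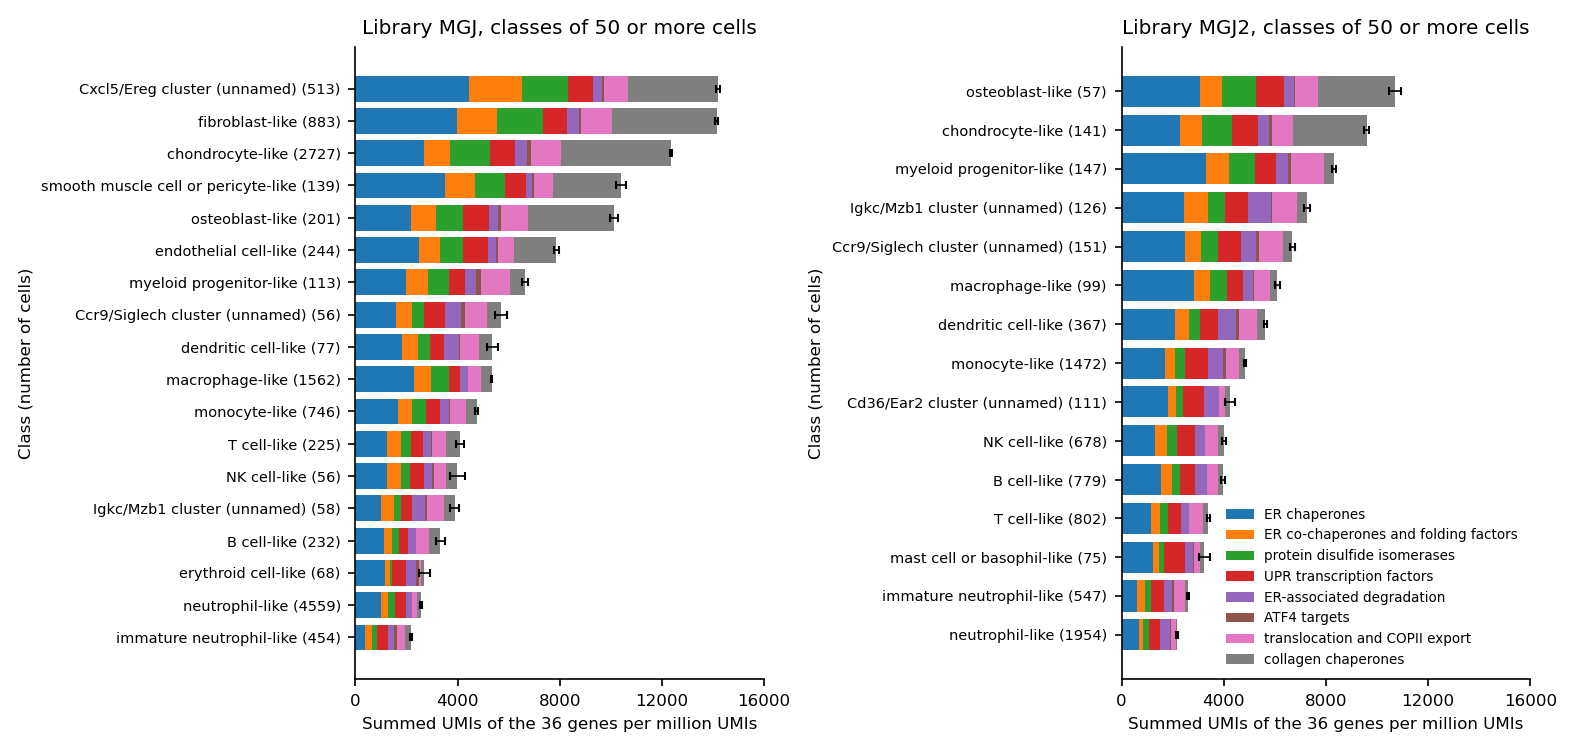
Summed level of the 36 genes in each cell class of library MGJ and library MGJ2, in CPM, with bars stacked by the 8 gene groups and whiskers giving the 95% Poisson interval of the sum. Fibroblast-like cells (14151) and chondrocyte-like cells (12349) stand near the top in MGJ, osteoblast-like cells (10691) and chondrocyte-like cells (9602) in MGJ2, and neutrophils (2573 and 2176) are near the bottom of both.

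Which class led differed from gene to gene. The share of all genes that each class leads was not computed, so the counts below cannot be read as particular to the 36 genes. Among classes of at least 50 cells in MGJ, the Cxcl5/Ereg cluster had the highest level of 12 of the 36 genes, for 9 of which its interval set it apart from the next class, and fibroblast-like cells led for 7 genes, 3 of them set apart. Chondrocyte-like cells led for Atf4, Chac1 and Ppib, and osteoblast-like cells for Creb3l1 and Sec24d. Of these, Atf4 and Sec24d were not set apart from the next class. In MGJ2 osteoblast-like cells led for 10 genes (5 set apart) and the Igkc/Mzb1 cluster for 10 others (6 set apart). Chondrocyte-like cells led for Pdia6, Creb3l2, Sec23a and Ppib, with Creb3l2 and Sec23a not set apart. Endothelial cells of MGJ2, too few for this order, held more Creb3l2. Without its 17 Jchain and Mzb1 barcodes the Igkc/Mzb1 cluster stood above every other class for 1 gene, Herpud1. The heat map of levels by class shows this division.

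**Figure D2:**
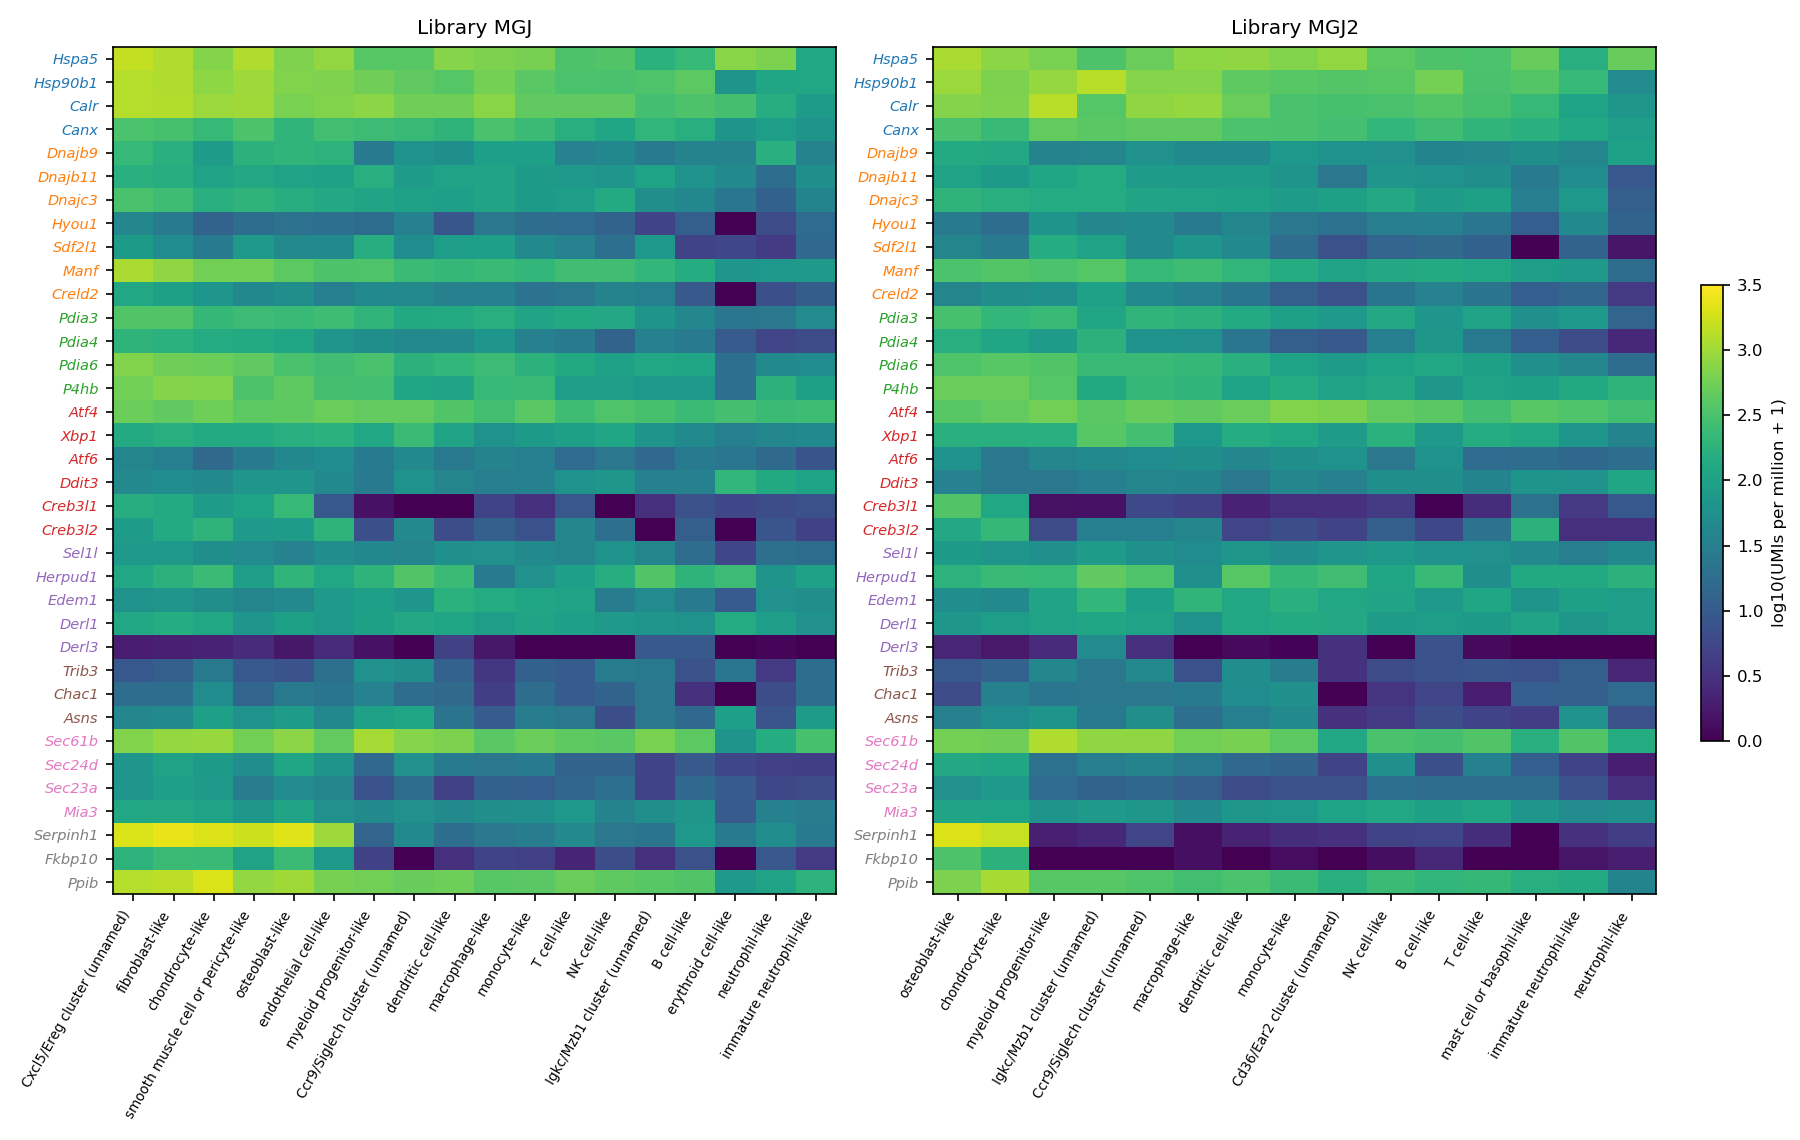
Level of each of the 36 genes, as log10 of CPM plus 1, in every class of at least 50 cells in library MGJ (18 classes) and library MGJ2 (15 classes), with genes in rows ordered by group. Serpinh1 and Fkbp10 are high in stromal classes and near 0 in leukocytes of MGJ2, at 0 to 4.47 CPM for Serpinh1 in the latter.

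Chondrocyte-like cells were first set against all other cells, to ask how the machinery of the cartilage cells stood in the tissue. A gene with at least 50 UMIs over both sides was counted as higher or lower when its level differed by at least 1.5 times. In MGJ 15 of the 36 genes were higher in chondrocyte-like cells and 5 lower, where 22.1% and 37.2% of all 14627 genes tested were, and the genes' median ratio was 1.34 against 0.860 over all genes. In MGJ2 16 were higher and 6 lower, where 26.0% and 43.4% of all 13062 genes were, and the medians were 1.45 and 0.777. The sum was 12349 against 8110 CPM in MGJ (ratio 1.52, 1.52 to 1.53) and 9602 against 4811 CPM in MGJ2 (ratio 1.996, 1.975 to 2.017).

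The other cells were mostly leukocytes. They were then limited to stromal and vascular classes, namely fibroblast-, osteoblast-, endothelial and smooth muscle or pericyte-like cells. The unnamed Cxcl5/Ereg cluster was not among these. In this comparison, added after the data were seen, the ratio of the sums was 0.961 in MGJ and 0.964 in MGJ2. In it 4 and 5 genes were counted as higher, beside 13.1% and 12.2% of all genes. Of the 9 genes that were higher in both libraries against all other cells, Ppib alone stayed past 1.5 times in both, at 1.60 and 1.83. Pdia4 (0.913 and 0.806) and Serpinh1 (0.934 and 0.965) then lay below 1 in both, Sec24d (0.826) and Sec23a (0.949) in MGJ and Fkbp10 (0.737) in MGJ2. Genes raised by enzymatic dissociation summed to 2933 CPM in chondrocyte-like and 3466 CPM in other cells of MGJ and to 4855 and 2262 CPM in MGJ2, and their part in the result was not tested.

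Higher in both libraries were 9 genes, namely Pdia4, Pdia6, P4hb, Creb3l2, Sec24d, Sec23a, Serpinh1, Fkbp10 and Ppib. They include all 3 collagen chaperones. Serpinh1 (HSP47, chr7:99345376-99353239, minus strand), which holds procollagen in its triple helix, stood at 2039 CPM in chondrocyte-like and 928 CPM in other cells of MGJ (ratio 2.20) and at 1621 and 46.6 CPM in MGJ2 (ratio 34.8). Fkbp10, a prolyl isomerase of collagen folding, stood at 230 against 89.6 CPM and at 177 against 6.71 CPM. Ppib, the cyclophilin of the same pathway, stood at 2024 against 723 CPM and at 1085 against 243 CPM. The much larger ratios of Serpinh1 and Fkbp10 in MGJ2 go with other cells that were nearly all leukocytes, in whose classes Serpinh1 was between 0 and 4.47 CPM. Endothelial cells of MGJ2, by contrast, held Serpinh1 at 902 CPM.

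The isomerases and coat genes that were higher in both libraries showed smaller ratios. P4hb, the protein disulfide isomerase that is also a subunit of prolyl 4-hydroxylase, stood at 683 against 368 CPM in MGJ (ratio 1.86) and at 497 against 169 CPM in MGJ2 (ratio 2.94). Sec23a and Sec24d, inner coat proteins of COPII vesicles, had ratios of 2.01 and 1.71 in MGJ and of 6.94 and 5.87 in MGJ2. Both carry TGACGTGG in their promoters. Creb3l2 (chr6:37327255-37442146, minus strand) stood at 190 against 55.9 CPM (ratio 3.40) and at 212 against 15.9 CPM (ratio 13.4). Its level in endothelial cells was as high, at 190 CPM in MGJ and 326 CPM in MGJ2.

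Lower in both libraries were Hyou1, Atf6 and Edem1. Hyou1, a nucleotide exchange factor of BiP, stood at 11.9 against 21.9 CPM and at 17.0 against 32.6 CPM. Atf6, the sensor itself, stood at 14.99 against 29.9 CPM and at 24.5 against 37.8 CPM. Edem1, which hands misfolded glycoproteins to degradation, stood at 52.0 against 85.5 CPM and at 47.0 against 126 CPM. The central chaperone Hspa5 was counted in neither direction, at 712 against 848 CPM in MGJ and 785 against 535 CPM in MGJ2. The genes Derl3, Trib3 and Dnajb9 were higher in one library and lower in the other.

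The ATF4 targets gave different counts in the comparisons of the 2 libraries. In MGJ all 3 were higher in chondrocyte-like cells, with Chac1, a glutathione-degrading enzyme, at 48.6 against 13.01 CPM (ratio 3.74, 3.46 to 4.04), Asns, asparagine synthetase, at 93.0 against 34.5 CPM (ratio 2.70) and Trib3, a pseudokinase that damps the pathway, at 24.7 against 9.89 CPM (ratio 2.50). With Herpud1 (ratio 2.30), these were the 4 genes whose promoters hold TGATGNAAN. In MGJ2 none of the 4 was higher, with Chac1 at 33.3 against 26.6 CPM, Asns at 49.9 against 34.3 CPM and Trib3 lower at 11.8 against 21.0 CPM. When every cell of MGJ was thinned to 2000 UMIs, leaving out 53 chondrocyte-like and 3290 other cells, 8.56% of chondrocyte-like cells held a Chac1 UMI, against 1.78% of other cells and 0.855% of neutrophils. Before thinning these shares were 48.3%, 5.98% and 1.08%.

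Other genes of the pathway, a list of 148 chosen for their function, were also more often higher than lower in chondrocyte-like cells. In MGJ 73 were higher and 12 lower of 148 tested, and in MGJ2 82 were higher and 23 lower of 147. Over all genes tested, 22.1% were higher and 37.2% lower in MGJ, and 26.0% and 43.4% in MGJ2. The 148 genes were not counted against stromal and vascular classes alone. Of the enzymes of collagen modification, 10 of 12 were higher in MGJ and 12 of 12 in MGJ2. The largest ratios were those of Stc2, a secreted glycoprotein induced by ER stress, at 20.5 and 137, and of P3h2, a collagen prolyl 3-hydroxylase, at 12.96 and 130. In MGJ2 these ratios rested on 17 UMIs of Stc2 and 69 of P3h2 in the other cells. The lowest included Slc7a11, the cystine transporter, at 0.0561 and 0.0334.

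Chondrocytes enlarge and switch on Col10a1 as they become hypertrophic, and the second question was how the machinery stood along that course. Cells with under 1000 CPM of Col10a1 were called Col10a1-low (1801 in MGJ, 56 in MGJ2), those with 10000 CPM or more Col10a1-high (543 and 58), and those between moderate (383 and 27). Of the 2727 cells of MGJ, 134 lay within 1.5 times of the lower cut and 168 of the upper, and of the 141 cells of MGJ2, 11 and 9. Col10a1 itself chose these cells, so its own level is no result.

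The machinery was lower in Col10a1-high cells of both libraries. In MGJ the 36 genes summed to 13128 CPM in Col10a1-low, 13146 CPM in moderate and 9138 CPM in Col10a1-high cells, a ratio of high to low of 0.696 (0.691 to 0.701). In MGJ2 the sums were 12370, 11713 and 6302 CPM, a ratio of 0.510 (0.498 to 0.521). Over single cells the middle 50% ran from 10073 to 15290 CPM in Col10a1-low and from 5563 to 10931 CPM in Col10a1-high cells of MGJ, and from 7971 to 14513 and from 4541 to 7084 CPM in MGJ2. These ranges overlapped in MGJ and did not in MGJ2.

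Counted gene by gene, 3 of 36 were higher and 11 lower in MGJ, where 17.1% and 20.7% of all 12161 genes tested were. In MGJ2 2 were higher and 22 lower of the 34 tested, where 16.6% and 20.6% of all 5958 genes were. The genes' median ratios were 0.703 and 0.527, against 0.973 and 0.971 over all genes. Lower in both libraries were 9 genes (Hspa5, Hsp90b1, Hyou1, Pdia4, P4hb, Creb3l2, Asns, Serpinh1 and Fkbp10) and higher in both were Dnajb9 and Ddit3.

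**Figure D3:**
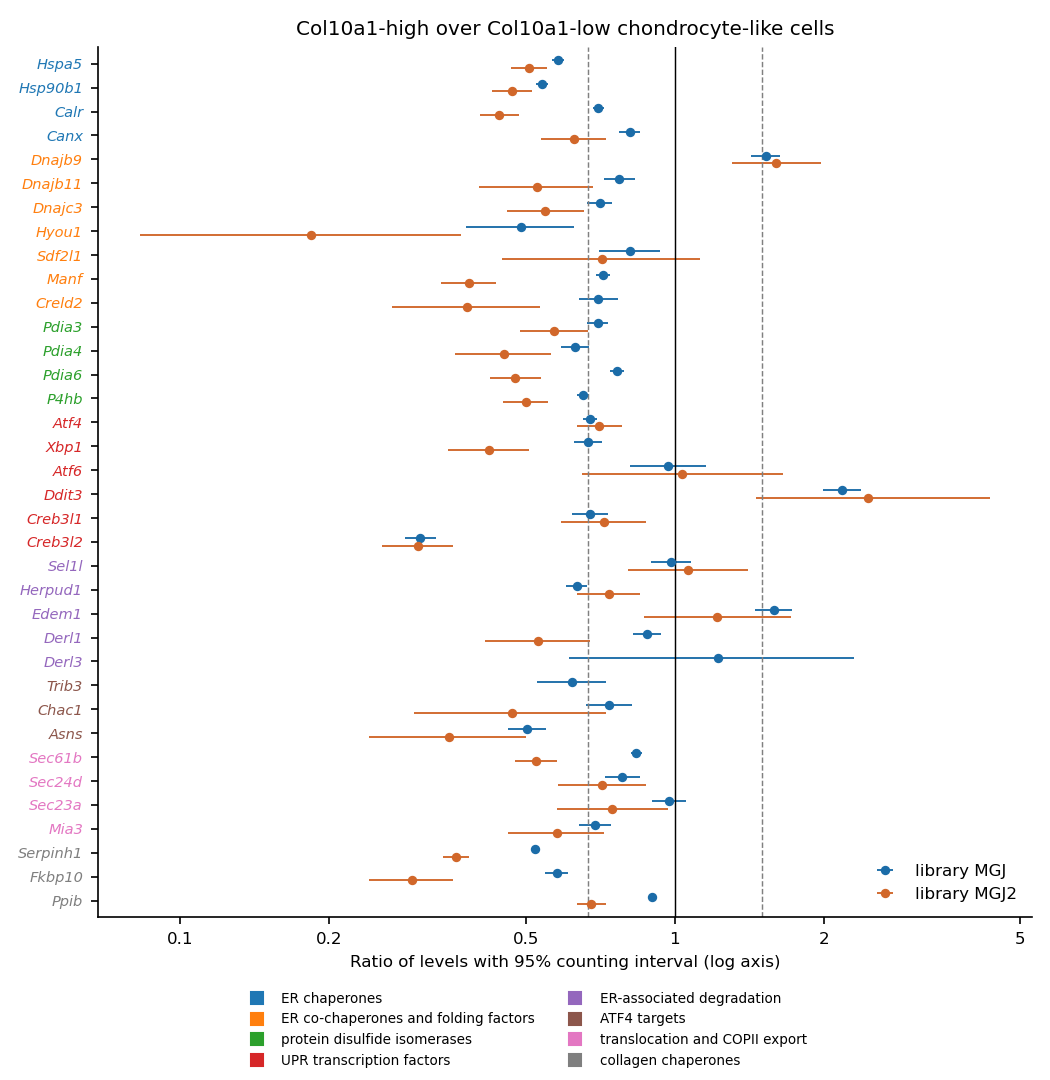
Ratio of each gene's level in Col10a1-high to that in Col10a1-low chondrocyte-like cells, on a log axis, with 95% counting intervals, for library MGJ and library MGJ2, and dashed lines at 1.5 times in either direction. Most of the 36 genes lie below 1 in both libraries, with Creb3l2 at 0.306 and 0.302, and Ddit3 lies highest at 2.18 and 2.47.

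The chaperones Hspa5 and Hsp90b1 were among the lower genes. Hspa5 stood at 781 CPM in Col10a1-low and 454 CPM in Col10a1-high cells of MGJ (ratio 0.581, 0.564 to 0.598) and at 1007 and 511 CPM in MGJ2 (ratio 0.507, 0.467 to 0.550). Hsp90b1, the ER member of the HSP90 family, stood at 890 and 479 CPM in MGJ and at 825 and 386 CPM in MGJ2. The lectin chaperones Calr and Canx, which bind glycoproteins, were counted as lower in MGJ2 (0.442 and 0.624) but not in MGJ (0.701 and 0.811).

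Among the 8 genes whose promoters hold the ER stress response element, none was higher in Col10a1-high cells in either library. In MGJ 2 of the 8 were lower, with ratios between 0.538 and 1.22 and a median of 0.703. Of the 22 other genes with a promoter sequence 3 were higher and 7 lower, with a median of 0.718. In MGJ2 all 7 that could be tested were lower, with ratios between 0.380 and 0.624 and a median of 0.476. Of 21 others tested there 2 were higher and 11 lower, with a median of 0.577. Of all genes tested, 17.1% were higher and 20.7% lower in MGJ, and 16.6% and 20.6% in MGJ2.

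The collagen chaperones and the folding enzymes took the same direction. Serpinh1 stood at 2303 CPM in Col10a1-low and 1202 CPM in Col10a1-high cells of MGJ (ratio 0.522, 0.512 to 0.531) and at 2381 and 859 CPM in MGJ2 (ratio 0.361, 0.340 to 0.383). Fkbp10 stood at 252 and 146 CPM in MGJ and at 264 and 77.5 CPM in MGJ2. Ppib was counted in neither direction, at 2028 and 1826 CPM and at 1256 and 851 CPM. Of the isomerases, P4hb stood at 737 and 481 CPM in MGJ and at 624 and 312 CPM in MGJ2, and Pdia4 had ratios of 0.630 and 0.451.

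Transcription factors of the response split. Creb3l2, which is known for its role in cartilage, had the lowest ratio among them, at 236 CPM in Col10a1-low and 72.0 CPM in Col10a1-high cells of MGJ (ratio 0.306, 0.284 to 0.329) and at 353 and 107 CPM in MGJ2 (ratio 0.302, 0.255 to 0.357). Sec23a, an export gene known to be driven by Creb3l2 in chondrocytes, was counted in neither direction, at 72.9 and 71.0 CPM in MGJ and 84.6 and 63.2 CPM in MGJ2. Atf6 was also counted in neither direction (0.970 and 1.03), as was Atf4 (0.673 and 0.704). Xbp1 was counted as lower in MGJ2 (221 against 92.9 CPM) but not in MGJ (147 against 98.1 CPM).

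Ddit3, which encodes CHOP, the factor tied to the terminal phase of ER stress, went the other way. It stood at 33.5 CPM in Col10a1-low, 56.4 CPM in moderate and 73.2 CPM in Col10a1-high cells of MGJ (ratio 2.18, 1.997 to 2.38). In MGJ2 it stood at 12.7 and 31.3 CPM on 20 and 57 UMIs (ratio 2.47, 1.46 to 4.33). All its UMIs fell on ENSMUSG00000025408 (chr10:127290774-127296288, plus strand) and none on the overlapping ENSMUSG00000116429, so reads shared by the 2 models may have been lost and its level is uncertain. After thinning to 2000 UMIs, 6.17% (5.10 to 7.39) of Col10a1-low and 13.9% (11.1 to 17.2) of Col10a1-high cells of MGJ held a Ddit3 UMI, against 37.6% and 56.9% unthinned.

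Ddit3 was not particular to cartilage. Its level in neutrophils was 132 CPM in MGJ and 113 CPM in MGJ2, and 19.1% of thinned neutrophils of MGJ held a UMI of it, above the share in Col10a1-high cells. The sum of the dissociation genes stood in the same order as Ddit3 between stages. It was 2787 CPM in Col10a1-low and 3489 CPM in Col10a1-high cells of MGJ and 3850 and 5469 CPM in MGJ2. The list was split. Fosb (ratios 1.85 and 2.13), Junb (1.66 and 2.38) and Hspb1 (3.32 and 3.29) were higher in both libraries. Fos (0.973 and 0.892) and Jun (0.739 and 0.84) lay below 1 in both. The part of the dissociation genes in the result was not tested. Lyz2, a myeloid gene, stood at 15.9 CPM in Col10a1-low and 291 CPM in Col10a1-high cells of MGJ2 and at 49.5 and 77.8 CPM in MGJ, and its part in the result was not tested.

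Dnajb9, a co-chaperone that recruits BiP to IRE1 and is a classical XBP1 target, was the other gene higher in both. It stood at 71.7 and 110 CPM in MGJ (ratio 1.53, 1.43 to 1.64) and at 92.2 and 148 CPM in MGJ2 (ratio 1.61, 1.31 to 1.98). Its levels in neutrophils were 167 and 99.9 CPM. With the neutrophil level subtracted from every class, Ddit3 in both libraries and Dnajb9 in MGJ were not counted as higher. In these cases the neutrophil level exceeded that of both stages, so both stages were set to the same floor. That outcome was fixed in advance and says nothing about these genes. Edem1 was higher in MGJ, at 43.0 and 68.2 CPM, and not counted in MGJ2, at 38.8 and 47.3 CPM. Its neutrophil level in MGJ was 57.9 CPM. After the subtraction Edem1 in MGJ and Dnajb9 in MGJ2 were still counted as higher. There the Col10a1-low stage alone was set to the floor, so the subtraction is no check of them either. The other co-chaperones all had ratios below 1, with Hyou1 at ratios of 0.490 and 0.184, the latter on 10 against 47 UMIs.

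Of the ATF4 targets, Asns was counted as lower in both libraries. It stood at 101 and 51.0 CPM in MGJ (ratio 0.504, 0.460 to 0.550) and at 69.3 and 24.2 CPM in MGJ2 (ratio 0.349, 0.240 to 0.4998). Chac1 was counted as lower in MGJ2 only (0.468, against 0.737 in MGJ), and Trib3 as lower in MGJ (0.619), its 12 and 25 UMIs in MGJ2 being under the minimum. Genes outside the 36 on a list of targets of the integrated stress response, the pathway of ATF4, went both ways. The serine synthesis enzymes Psat1 (0.137) and Phgdh (0.321) were among the lowest in MGJ, and Vldlr (0.249) and Pycr1 (0.296) in MGJ2. Stc2 in MGJ (1.74) and Cebpb in MGJ2 (2.60) were among the highest. Atf3, a stress-induced transcription factor on the same list, was the highest in both, at 62.8 and 188 CPM in MGJ and 48.3 and 256 CPM in MGJ2.

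Of the 148 other pathway genes, 5 were higher and 41 lower of 147 tested in MGJ, and 7 higher and 64 lower of 135 in MGJ2. The median ratios of the pathway genes were 0.804 and 0.719. As shares of all genes tested, 17.1% were higher and 20.7% lower in MGJ, and 16.6% and 20.6% in MGJ2. Collagen modification enzymes were lower in 9 of 12 and in 11 of 11 cases. Dnajc10, an ER reductase with a J domain, was an exception, at 41.0 and 104 CPM in MGJ and 55.3 and 113 CPM in MGJ2.

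Collagen mRNA other than Col10a1 was also lower in Col10a1-high cells. The 44 other collagen genes summed to 101451 CPM in Col10a1-low and 79696 CPM in Col10a1-high cells of MGJ (ratio 0.786, 0.784 to 0.787), and to 114948 and 53568 CPM in MGJ2 (ratio 0.466, 0.462 to 0.470). With Col10a1, which chose the cells, the sums were 101603 and 110438 CPM in MGJ and 115153 and 98562 CPM in MGJ2. Spp1, the bone matrix protein osteopontin, stood at 4125 and 15063 CPM in MGJ and at 3965 and 22221 CPM in MGJ2. Since such genes take part of the UMI total, the ratio of the sums was also computed without collagen, matrix and mitochondrial genes in the total, and was 0.710 and 0.496. Median UMIs per cell were 20532 and 21141 in MGJ and 29780 and 28974 in MGJ2.

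In finer ranges of Col10a1 the lower sums lay in the upper ranges. In MGJ the sum was 12992 CPM in cells under 100 CPM of Col10a1, 13193 CPM from 100 to 300, 13510 CPM from 300 to 1000, 13512 CPM from 1000 to 3000 and 12825 CPM from 3000 to 10000. It then stood at 10757 CPM from 10000 to 30000 and at 6628 CPM from 30000 upward, a range that held 237 cells. Of the 36 genes, 31 were lowest in that last range. The share of all genes lowest there was not computed, so this count cannot be read as particular to the 36. Among them were Serpinh1 (2307 CPM in the first range and 799 in the last), Hspa5 (782 and 295) and Creb3l2 (239 and 49.3). Creb3l2 was already at 128 CPM between 3000 and 10000, where the sum was still 12825 CPM.

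Only Dnajb9, Atf6 and Ddit3 were highest in the last range, at 118, 16.9 and 82.2 CPM against 68.9, 14.8 and 33.2 CPM in the first. Asns peaked at 119 CPM between 1000 and 3000 before standing at 32.1 CPM in the last range. The 3 ranges of MGJ2 with at least 20 cells gave sums of 11328 CPM (under 100), 7874 CPM (10000 to 30000) and 5123 CPM (from 30000). In the last, 29 of the 36 genes were lowest, again without a share over all genes to set beside the count. The plot of levels along Col10a1 draws this course.

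**Figure D4:**
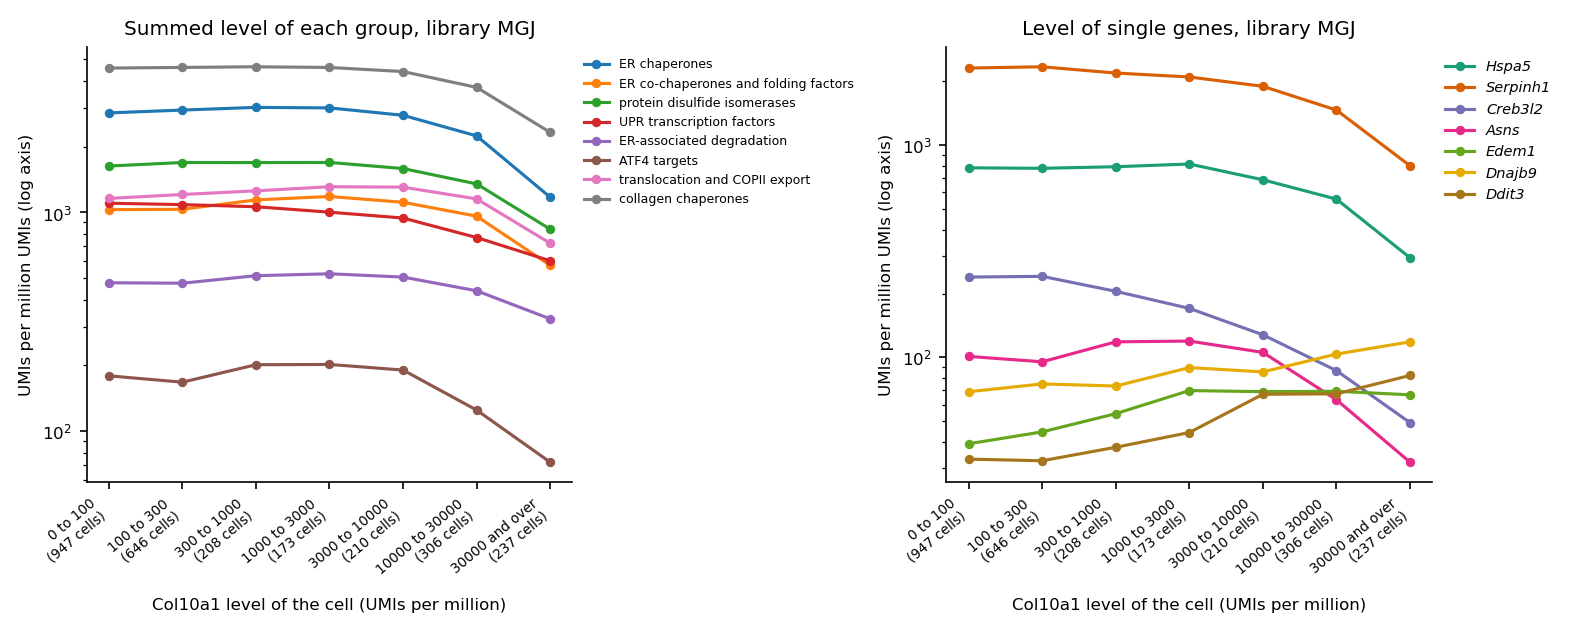
Summed levels of the 8 gene groups and the levels of Hspa5, Serpinh1, Creb3l2, Asns, Edem1, Dnajb9 and Ddit3 (CPM, log axis) in chondrocyte-like cells of library MGJ, in 7 ranges of Col10a1 level. The 36 genes sum to between 12825 and 13512 in the ranges up to 10000 CPM of Col10a1 and to 10757 and 6628 above it, while Ddit3 stands at 33.2 in the first range and 82.2 in the last.

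Col10a1-high cells were not of 1 kind. Clustering the chondrocyte-like cells of both libraries without the 36 genes gave 10 sub-clusters, and 53.6% of the Col10a1-high cells of MGJ lay in a sub-cluster led by Col10a1, Aldh1a3 and Fxyd3, with 29.7% in another led by Col10a1, Pcsk6 and Mmp13. In MGJ2 82.8% lay in the latter. The 36 genes summed to 10433 CPM in the Aldh1a3 sub-cluster of MGJ, and to 6659 CPM in the Mmp13 sub-cluster of MGJ and 6579 CPM in that of MGJ2. Their Col10a1 levels were 23980, 29391 and 36498 CPM, and their Spp1 levels 8036, 34841 and 22006 CPM. Serpinh1 stood at 1381, 811 and 847 CPM and Creb3l2 at 79.3, 59.3 and 124 CPM in the same sub-clusters.

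Low sums were also found without Col10a1. A sub-cluster of MGJ led by the acute-phase genes Chil1 and Hp (57 cells, Col10a1 at 267 CPM) summed to 8360 CPM, with Spp1 at 43939 CPM and Mmp13 at 4752 CPM. Another led by Mmp13 and Has2 (59 cells, Col10a1 at 225 CPM) summed to 9936 CPM. The highest sum of MGJ belonged to the sub-cluster led by Rtl3, Smim5 and Peg3, at 15302 CPM. This sub-cluster stood at 13281 CPM in MGJ2, with Hspa5 at 1074 and 1186 CPM and Serpinh1 at 2931 and 2642 CPM. It held 14.3% of the Col10a1-low cells of MGJ and 41.1% of those of MGJ2. Of the Col10a1-high cells it held 3.68% and 3.45%. The part of this make-up in the stage ratios was not tested. Without the cell-cycle and acute-phase sub-clusters, an alternative added after the data were seen, the ratio of Col10a1-high to Col10a1-low sums was 0.685 in MGJ and 0.504 in MGJ2.

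Osteoblast-like cells were then compared with the chondrocyte-like cells of their own library, as both secrete a collagen matrix. This and the next comparison use the same chondrocyte-like cells as above. In MGJ 5 of 36 genes were higher in osteoblast-like cells and 10 lower, where 30.9% and 19.5% of all 12580 genes tested were, and in MGJ2 4 were higher and 4 lower of 35, where 25% and 15.9% of all 7358 genes were. The sums were 10128 against 12349 CPM in MGJ (ratio 0.820, 0.807 to 0.834) and 10691 against 9602 CPM in MGJ2 (ratio 1.11, 1.09 to 1.14). With every cell weighted equally the ratios were 0.677 and 0.980. Median UMIs of the osteoblast-like cells were 2820 and 9187, against 20987 and 29235 for chondrocyte-like cells.

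The 2 related factors of the CREB3 family stood in opposite order in the 2 cell classes. Creb3l1 (chr2:91982328-92024502, minus strand) stood at 220 CPM in osteoblast-like and 84.7 CPM in chondrocyte-like cells of MGJ (ratio 2.59, 2.31 to 2.90) and at 352 and 121 CPM in MGJ2 (ratio 2.90, 2.49 to 3.38). Creb3l2 stood at 83.9 and 190 CPM in MGJ (ratio 0.442, 0.367 to 0.528) and at 128 and 212 CPM in MGJ2 (ratio 0.603, 0.481 to 0.747). Osteoblast-like cells had the highest Creb3l1 of any class of at least 50 cells in both libraries, and in leukocyte classes of that size it lay between 0 and 7.97 CPM in MGJ.

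Besides Creb3l1, Atf6 and Hyou1 were higher in osteoblast-like cells of both libraries. Atf6 stood at 42.3 against 14.99 CPM in MGJ (ratio 2.82, 2.14 to 3.65) and at 61.2 against 24.5 CPM in MGJ2 (ratio 2.50, 1.72 to 3.60). After thinning, 15.04% of 113 osteoblast-like cells and 3.18% of chondrocyte-like cells of MGJ held an Atf6 UMI, with 2.03% of neutrophils, and the unthinned shares were 21.4%, 25.5% and 3.05%. Hyou1 rested on 28 and 19 UMIs in osteoblast-like cells, with intervals from 1.06 to 2.35 and from 0.884 to 2.60, so in MGJ2 the difference was within counting error, and its direction turned in both libraries when cells were named by marker score (0.890 and 0.847).

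Lower in both were Creb3l2, Chac1 and Ppib. Ppib stood at 999 against 2024 CPM in MGJ (ratio 0.494, 0.468 to 0.520) and at 639 against 1085 CPM in MGJ2 (ratio 0.588, 0.533 to 0.648). Serpinh1 did not share this, at 2130 against 2039 CPM and at 2044 against 1621 CPM. Fkbp10 was near equal in MGJ (239 against 230 CPM) and higher in MGJ2 (331 against 177 CPM, ratio 1.87). Chac1 stood at 25.2 against 48.6 CPM in MGJ and at 5.56 against 33.3 CPM in MGJ2, the latter on 4 UMIs. Derl3 had 1 UMI in the osteoblast-like cells of each library.

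**Figure D5:**
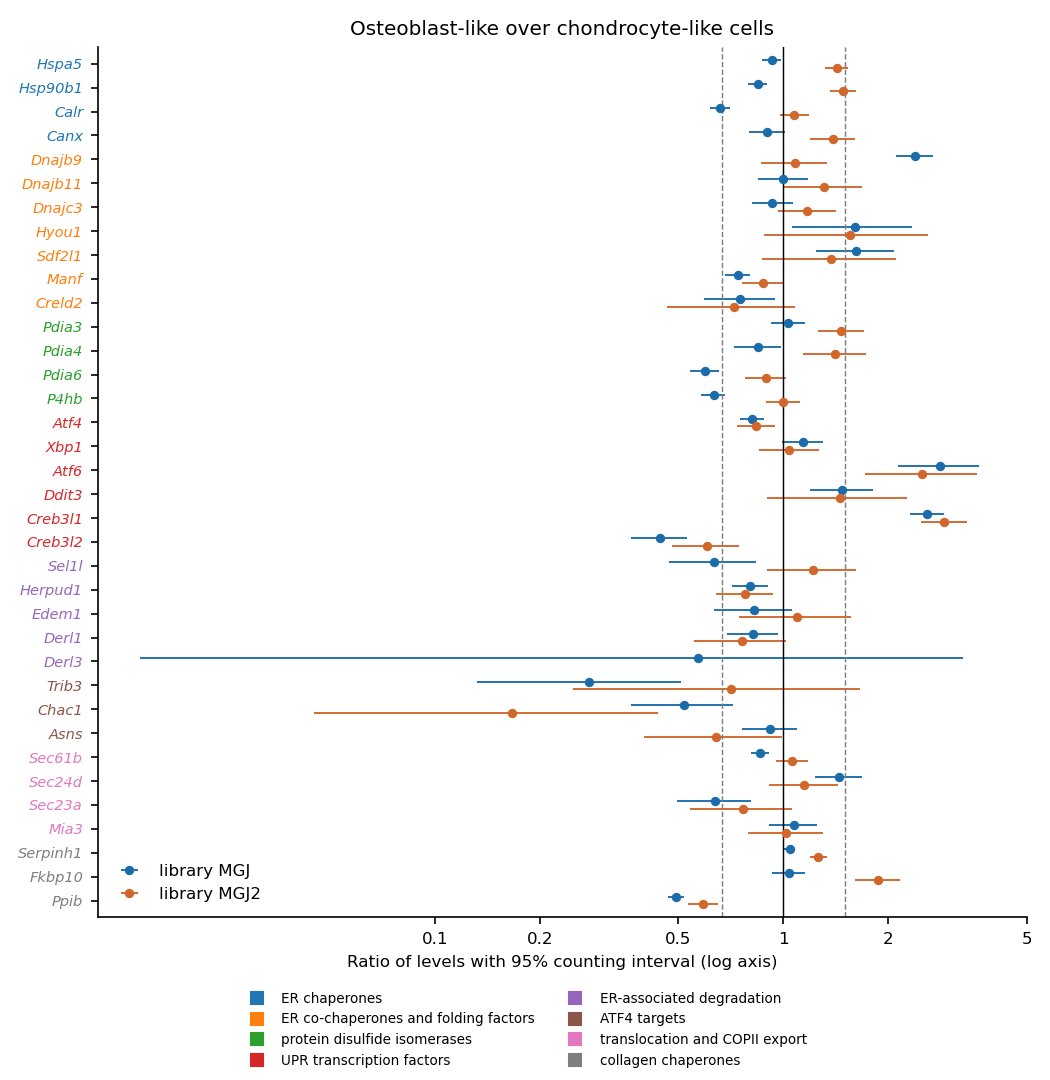
Ratio of each gene's level in osteoblast-like to that in chondrocyte-like cells, on a log axis, with 95% counting intervals, for library MGJ and library MGJ2, and dashed lines at 1.5 times in either direction. Creb3l1 (2.59 and 2.90) and Atf6 (2.82 and 2.50) lie above the upper line and Creb3l2 (0.442 and 0.603) and Ppib (0.494 and 0.588) below the lower line in both libraries.

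Among the other 148 pathway genes, 12 were higher and 29 lower of 147 in MGJ and 15 higher and 13 lower of 139 in MGJ2. Over all genes tested, 30.9% were higher and 19.5% lower in MGJ, and 25% and 15.9% in MGJ2. Collagen modification enzymes were lower in osteoblast-like cells in 9 of 12 and 5 of 11 cases. Were the Col2a1 of the osteoblast-like cells all due to chondrocyte RNA, that share would carry 746 CPM of the summed 36 genes in MGJ and 1191 CPM in MGJ2. The part of such RNA in the result was not tested. Dissociation genes summed to 4055 CPM in osteoblast-like cells of MGJ and 6579 CPM in those of MGJ2, against 2933 and 4855 CPM in chondrocyte-like cells, and their part was not tested either.

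In fibroblast-like cells of MGJ, 2 of 4 ER chaperones, 4 of 7 co-chaperones and 1 of 4 isomerases were counted as higher than in chondrocyte-like cells, and the 3 ATF4 targets as lower. In all 9 of 36 genes were higher and 3 lower, where 35.2% and 15% of all 13098 genes tested were, and the sums were 14151 against 12349 CPM (ratio 1.15, 1.14 to 1.15). The median ratio of the 36 genes, 1.24, was that of all genes, also 1.24. Of the 148 other pathway genes 22 were higher and 9 lower of 147 tested, with a median of 1.02. Other ER folding genes were higher in 4 and lower in 2 of 26 cases, and other targets of the integrated stress response, the pathway of ATF4, were higher in 3 (Atf3, Psat1 and Nupr1, named after their values were seen) and lower in 5 of 20.

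Summed ER chaperones stood at 3965 against 2686 CPM and co-chaperones at 1579 against 1014 CPM. Hspa5 stood at 1198 against 712 CPM (ratio 1.68, 1.65 to 1.71), Hsp90b1 at 1214 against 808 CPM and Pdia3, the isomerase that works with Calr and Canx, at 354 against 217 CPM. Dnajb9 (2.05), Dnajc3 (1.57), Hyou1 (2.22), Sdf2l1 (1.80), Atf6 (2.07) and Creb3l1 (1.63) were also higher. The lower genes were the 3 ATF4 targets, with Chac1 at 17.4 against 48.6 CPM (ratio 0.358), Trib3 at 10.4 against 24.7 CPM and Asns at 45.0 against 93.0 CPM. Collagen chaperones summed to 4101 against 4294 CPM. Dissociation genes were at 4987 CPM in fibroblast-like and 2933 CPM in chondrocyte-like cells, and their part in the result was not tested.

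A few barcodes with immunoglobulin genes held the highest sum given here for MGJ2. The 20 barcodes there with at least 3 UMIs each of Jchain and Mzb1, genes of immunoglobulin assembly and secretion, summed to 21347 CPM over the 36 genes, higher than any class named above. Since Mzb1 encodes an ER protein, the sum is not independent of how the barcodes were chosen. A cut in UMIs also favours deep barcodes, and their median was 21372 UMIs, against 13018 in the Igkc/Mzb1 cluster. Hsp90b1 stood at 5610 CPM, Xbp1, which plasma cells need, at 1640 CPM, Manf, a secreted ER factor, at 1360 CPM, Edem1 at 840 CPM and Derl3, a channel component of ER-associated degradation, at 232 CPM. In chondrocyte-like cells of the same library these 5 genes stood at 638, 160, 370, 47.0 and 0.719 CPM. Serpinh1 and Fkbp10 had 0 UMIs in these barcodes, and Serpinh1 could there have reached 7.79 CPM at the upper bound of its interval.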

How the data were processed

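Calluses were digested with enzymes and captured with the 10x Genomics Chromium Single-Cell 3′ kit, version 3. The authors deposited 1 filtered matrix of raw UMI counts per library, and the file headers name Cell Ranger 4.0.0. The submitters' processing notes name GRCm38, Cell Ranger and Seurat, and the gene annotation is not given in the sources used here. No library had a group in the labels, and whether its cells came from pooled mice is not stated.

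Cells needed at least 200 genes and at most 20% mitochondrial UMIs. Doublets were barcodes with a Scrublet score of at least 0.25 (528 of 13460 in MGJ, 3.92%, and 231 of 7806 in MGJ2, 2.96%, below the 10.8% and 6.25% expected from loading). This value was set after the automatic threshold of MGJ (0.706) had called 0 barcodes. Cells of both libraries were clustered on 2000 variable genes without the 36 genes (30 principal components, 15 neighbours, Leiden resolution 1, and 0.5 for chondrocyte sub-clusters), with scanpy 1.11.5 under Python 3.11.15, numpy 2.4.6, scipy 1.17.1, pandas 2.3.3, leidenalg 0.10.2 and matplotlib 3.10.9. Of the 31 clusters, those with at least 3 detected markers and no lead by markers of another class were named, and fibroblast and tenocyte lists were joined after the leading genes were seen. The monocyte-like class includes a cluster with more markers of other classes than its own and was compared as a class with no other, though its cells are among all other cells and it stands in the order of classes.

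UMIs were summed per class. Levels have exact Poisson and ratios exact conditional binomial intervals at 95%, and shares exact Clopper-Pearson ones. The ratio scripts were tested on simulated counts. No test across samples was possible. Named other pathway genes were the 3 highest and 3 lowest of the tested list in the comparisons with other cells and between stages. Members and lists were chosen with earlier results of these data known. PCR duplicates were removed by UMI before deposit, so intervals cover counting error but not biological variation. Coordinates are those of GENCODE M21 and RefSeq on GRCm38. Alternatives covered the doublet, mitochondrial, depth and low-count filters, clustering resolution, naming by cell, equal cell weights, the UMI total, subtraction of the neutrophil level, the fold and the Col10a1 cuts.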

Additional observations from a re-analysis of the deposited data

Results flagged for a closer look

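The barcodes removed by the filters, which entered no comparison, also held the 36 genes. Their summed level was 9246 CPM in the 1363 removed barcodes of MGJ and 3887 CPM in the 434 of MGJ2. No other value met a rule for a closer look.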

How the results depend on the processing

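The ratio of summed levels of Col10a1-high to Col10a1-low cells stayed below 1 under all alternatives run, from 0.583 to 0.747 in MGJ and from 0.415 to 0.611 in MGJ2. Hspa5, Hsp90b1, Hyou1, Pdia4, Creb3l2, Asns, Serpinh1 and Fkbp10 stayed at least 1.5 times lower in both libraries under each of them. The neutrophil levels of Hspa5 in MGJ (644 CPM) and of Hyou1 in MGJ2 (12.4 CPM) lay between those of the stages. With that level subtracted, the Col10a1-high side was set to the floor, so for these the alternative is no check. Subtracting the neutrophil level gave 1 gene higher and 18 lower in MGJ (17.3% and 21.9% of all genes) and 1 higher in MGJ2 (16.5%). The neutrophil level exceeds that of Ddit3 in both and of Dnajb9 in MGJ. Both stages were there set to the same floor, so these genes could not be counted. The genes still higher were Edem1 in MGJ and Dnajb9 in MGJ2. For them the Col10a1-low stage alone was set to the floor, so their counts rest on it and are no check. A fold of 2 gave 1 higher and 2 lower in MGJ (8.14% and 10.4%) and 1 and 14 in MGJ2 (7.77% and 9.15%), and cuts of 2000 and 20000 CPM gave 24 lower in MGJ (23.4%).

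For chondrocyte-like over other cells the ratio ran from 0.961 to 2.33 in MGJ and from 0.964 to 2.73 in MGJ2. A fold of 2 gave 9 higher and 1 lower in MGJ (14.3% and 26.8% of all genes) and 3 lower in MGJ2 (33.03%). Equal cell weights gave 26 higher and 3 lower in MGJ (37.05% and 31.5%), and a UMI total without matrix genes gave 3 lower (30.2%). With stromal and vascular classes only (chosen after the data were seen) 4 and 5 genes were higher (13.1% and 12.2%), the ratios of the sums were 0.961 and 0.964, and in MGJ Pdia4 (0.913), Sec24d (0.826), Sec23a (0.949) and Serpinh1 (0.934) changed direction. In MGJ2 so did Calr (0.862), Dnajb9 (0.946), Dnajc3 (0.811), Pdia3 (0.666), Pdia4 (0.806), Creb3l1 (0.608), Trib3 (2.09), Serpinh1 (0.965) and Fkbp10 (0.737).

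For osteoblast-like over chondrocyte-like cells the ratio ran from 0.677 to 0.840 in MGJ and from 0.980 to 1.15 in MGJ2. In MGJ a limit of 10% mitochondrial UMIs gave 3 higher (27.97% of all genes) and a fold of 2 gave 3 higher and 3 lower (16.4% and 12.4%). Hyou1 changed direction with doublets kept (0.724) and with cells named by marker score (0.890), Sdf2l1 with these (0.632 and 0.586) and with equal weights (0.846), and Derl3 at resolution 2 (1.21). In MGJ2 naming by marker score gave 7 lower (21.2%) and Hyou1 at 0.847, equal weights gave 8 higher (27.6%), neutrophil subtraction 9 higher (25.9%), and a fold of 2 gave 2 higher and 1 lower (11.3% and 8.86%). For fibroblast-like over chondrocyte-like cells the ratio ran from 1.05 to 1.17, and the count of lower genes was 5 at resolution 0.5 (15.1% of all genes), 5 at 10% mitochondrial UMIs (16.5%), 6 with naming by marker score (17.2%) and, at 16.6%, 5 with the Cxcl5/Ereg cluster added (chosen after the data were seen). A total without matrix genes gave 5 higher and 6 lower (29.5% and 17.3%), neutrophil subtraction 14 higher (34.1%) and a fold of 2 gave 3 higher (19.1%). The cause of these shifts was not tested.

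The osteoblast-like comparison gave no value at resolution 0.5 in either library or, in MGJ2, with doublets kept, and neither did sub-clusters assigned by pooled Col10a1 in MGJ2. No paired analysis was possible because the labels give neither library a group. Counts under 50 UMIs set the limit in MGJ2, where Trib3 and Derl3 could not be compared between stages.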
